A study of Mus musculus with 30 samples.

Results

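The comparison described here was colon mucosa 15 weeks against 9 weeks after the start of AOM/DSS, the sexes pooled. It used 20 of the 30 libraries of the series: 10 at 9 weeks and 10 at 15 weeks, each with 5 females and 5 males, taken by the weeks, treatment and sex in the sample labels. All were wild-type C57BL/6J mice, between 5 and 10 weeks old at the start, given 1 intraperitoneal dose of azoxymethane (AOM, 10 mg/kg), a carcinogen activated in liver and colon, and then 3 cycles of 2.5% dextran sodium sulfate (DSS) in the drinking water, in weeks 1, 4 and 7, and were killed in week 9 or week 15. The remaining 10 libraries came from saline-injected vehicle mice killed at 9 weeks and are used only as a background level. The tissue was a scrape of the non-tumor epithelial layer, 1 mouse to a library, from which poly(A) RNA was sequenced with strand kept. The 15-week mice were also 6 weeks older than the 9-week mice, and no vehicle mice were killed at 15 weeks, so time since the last DSS cycle and age cannot be told apart.

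DSS breaks the epithelial barrier of the colon, bacteria reach the lamina propria, and resident macrophages and epithelium release interleukin-1 and CXC chemokines that draw in neutrophils. T cells and innate lymphocytes then add interferon-gamma, which switches on guanylate-binding proteins, immunity-related GTPases and the antigen presentation machinery. When DSS is withdrawn the myeloid infiltrate normally clears, fibroblasts and matrix enzymes rebuild the mucosa, and colonocytes return to oxidising fatty acids and conjugating xenobiotics; repeated cycles on an AOM-mutated epithelium end in tumors.

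The 20 libraries held 14619526 to 30806392 counts on genes (median 24355121.5). Pan-epithelial markers were high at both times, Lgals4, a colonocyte galectin, at 2090.2 to 2514 FPKM (median 2239.5) at 9 weeks and 1825 to 2707 FPKM (median 2171) at 15 weeks, and Krt18, an epithelial keratin, had medians of 249 and 264 FPKM. A pair of libraries stood apart. The replicate 5 library of 9-week females had the lowest scores at 9 weeks for the chemokine, neutrophil, interferon-gamma and collagen lists and lay among the 15-week females on the first principal component. The replicate 5 library of 15-week males held pancreatic transcripts and had the highest scores at 15 weeks for the chemokine, neutrophil and interferon-gamma lists. The mitochondrial share of counts was 4.007% to 11.89% (median 5.068%) at 9 weeks and 4.568% to 22.96% (median 8.624%) at 15 weeks. In the vehicle libraries it was 3.953% to 15.59% (median 7.88%).

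More genes fell than rose between 9 and 15 weeks. Of 15748 genes tested with 1 edgeR quasi-likelihood model of weeks plus sex, 368 (2.34%) were differentially expressed genes (DEGs) that fell and 76 (0.483%) were DEGs that rose, where a DEG had an adjusted p under 0.05, a log2 change beyond 0.4 and a mean of at least 1 FPKM at either time. The falls were also larger: the median log2 change was -1.28 over the DEGs that fell and 0.60 over those that rose, beside -0.02 over all genes tested. At an unadjusted p under 0.05, 2204 genes (14%) were lower and 1578 (10%) higher. Of the 444 DEGs (2.82%), 30 were immunoglobulin or T cell receptor segments, all lower and 18.4% of such segments tested. The median log2 change over all such segments tested was -1.51. Segments were taken by the start of the gene symbol, so constant regions such as Trac, and unrelated genes of like symbols, could be among them. The libraries of the 2 times did not overlap for 2 genes (0.0127%), Runx2, a fibroblast and osteoblast transcription factor, and Ecm2, a matrix protein, both lower at 15 weeks, under the FPKM minimum and named after their values were seen. Over the whole transcriptome, the transcriptomic signal-to-noise ratio, the distance between the 9-week and 15-week means over the mean distance of libraries from their own mean, was 1.02. It was taken on variance-stabilized counts centred within each sex. The exact one-sided permutation of weeks within each sex gave p = 0.00233 over 63504 splits. With 1 library left out the ratio ran from 0.961, without 9-week female 1, to 1.25, without 9-week female 5. The study read a ratio above 1 as high divergence. The ratio was under 1 without 9-week females 1, 2 or 4, 9-week males 1 or 2, 15-week female 1 or 15-week male 1.

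The counts of DEGs varied with single libraries. Without the replicate 5 library of 9-week females the counts were 722 lower and 539 higher, and without it and the replicate 5 library of 15-week males together, an alternative chosen after seeing the data, 716 and 509. Leaving out 9-week females 1, 2 or 4 gave 179, 209 or 165 lower and 12, 16 or 10 higher, and leaving out female 3 gave 38 higher. Leaving out 9-week males 1, 2 or 3 gave 172, 216 or 228 lower and 16, 18 or 26 higher. Leaving out 15-week female 1 gave 210 lower and 20 higher, and the higher count was 41 without female 2, 131 without female 5 and 22 without male 1 of the same time. A covariate for the level of mesenchymal, smooth muscle or distal colon genes in each library left 0 DEGs by edgeR in either direction, with 1517, 1982 and 1737 genes of either sign at an unadjusted p under 0.05. Signs were kept by 433 of the 444 DEGs with the mesenchymal covariate.

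**Figure D1:**
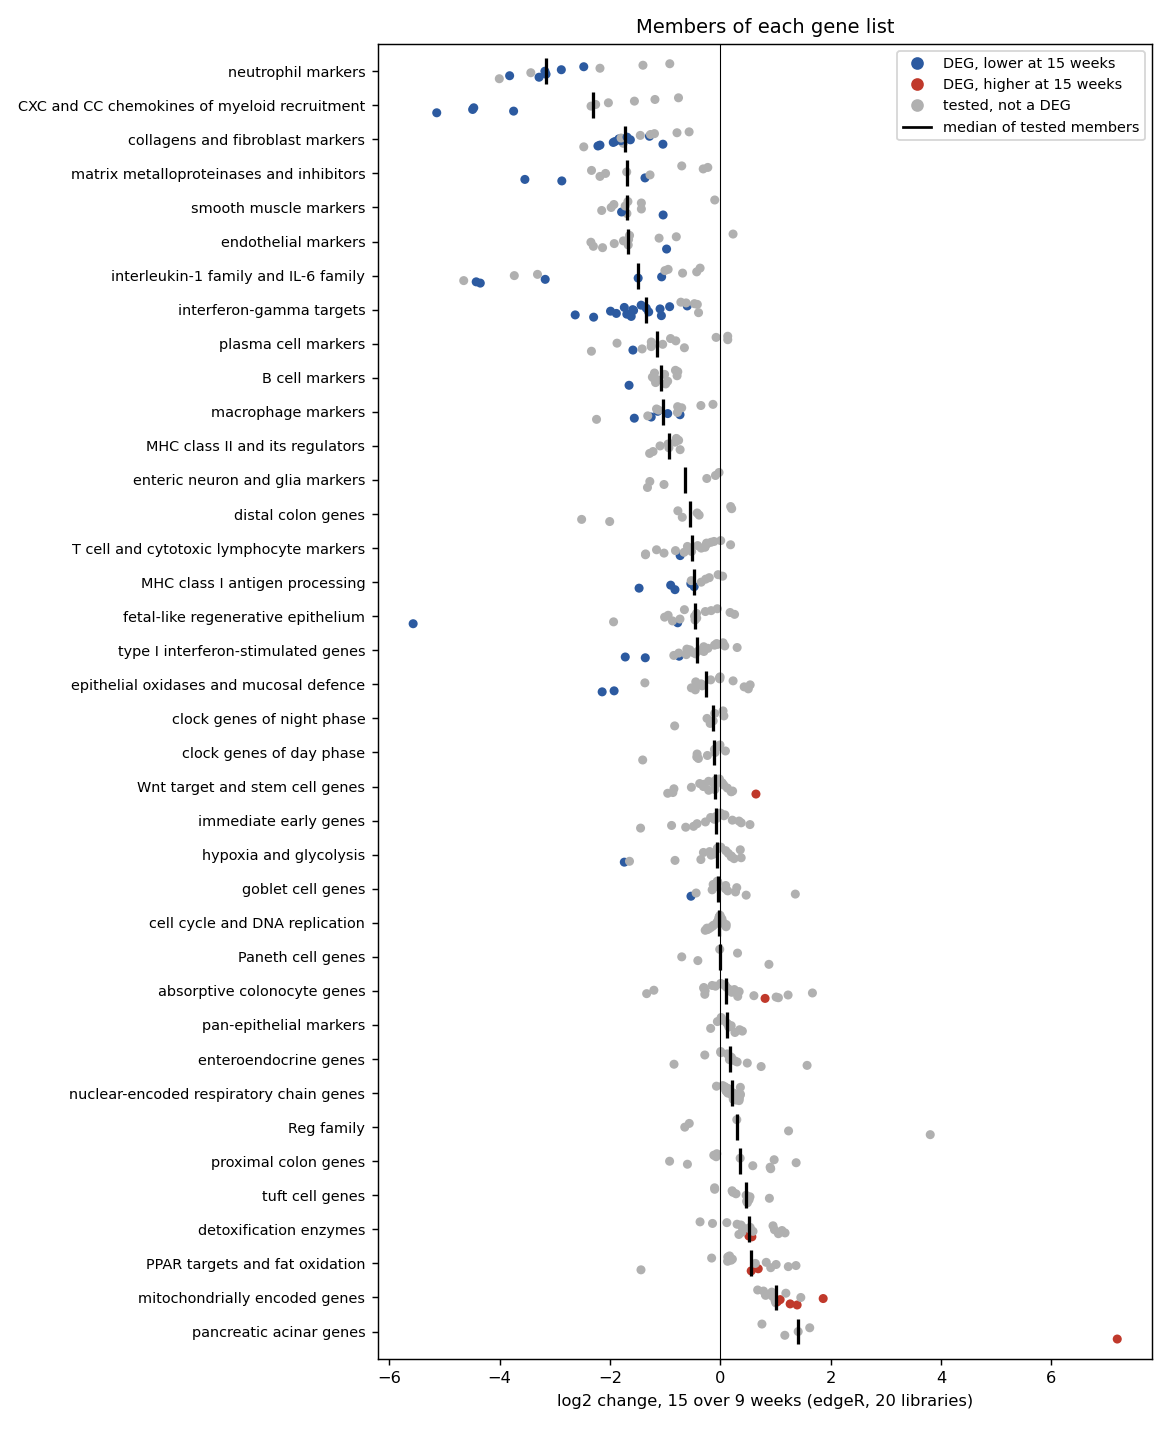
Log2 change, 15 over 9 weeks, of each tested member of each gene list (points, one row per list) with the median of the list (black bar) and DEGs in blue when lower and red when higher at 15 weeks. The neutrophil list lies lowest with a median of -3.16, interferon-gamma targets lie at -1.34, the cell cycle list at -0.02 and detoxification enzymes at 0.52.

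Chemokines of myeloid recruitment were among the genes with the largest falls. Cxcl2, a CXCR2 ligand that draws in neutrophils, measured 0.0416 to 39.0 FPKM (median 2.997) at 9 weeks and 0 to 1.65 FPKM (median 0.146) at 15 weeks (log2 change -4.47 ± 0.89 SE, adjusted p = 0.0132). Cxcl3, its neighbour on chromosome 5, measured 0.0197 to 8.12 FPKM (median 1.51) and then 0 to 0.396 FPKM (median 0.00468) (log2 change -4.49 ± 0.85 SE, adjusted p = 0.0121). For both genes 8 of the 10 libraries at 9 weeks were above the highest at 15 weeks, female replicate 4 was highest at 9 weeks, and female replicate 5 was lowest at 9 weeks. The 250 bases before the start of each gene are shown because both hold the NF-kB motif (GGGA, any 2 bases, TTCC), found on both strands at overlapping places and printed in capitals: 97 to 87 bases before the start of Cxcl2 and 73 to 63 before that of Cxcl3. Both come from RefSeq, GRCm38.p6, plus strand, at chr5:90903649-90903898 and chr5:90785851-90786100. The motif is in 316 (1.17%) of 27025 promoters of that length, and a match is a description of letters only.
Cxcl2: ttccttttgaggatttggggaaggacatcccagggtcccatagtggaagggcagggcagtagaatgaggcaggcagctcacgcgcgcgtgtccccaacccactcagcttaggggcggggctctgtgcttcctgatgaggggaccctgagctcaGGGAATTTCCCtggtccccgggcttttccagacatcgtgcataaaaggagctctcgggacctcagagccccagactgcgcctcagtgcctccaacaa
Cxcl3: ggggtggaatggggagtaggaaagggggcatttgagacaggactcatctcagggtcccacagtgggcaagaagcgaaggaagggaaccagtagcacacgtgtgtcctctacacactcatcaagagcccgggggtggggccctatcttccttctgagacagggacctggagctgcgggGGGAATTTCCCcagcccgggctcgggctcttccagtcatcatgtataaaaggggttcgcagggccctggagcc

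Ccl3 and Ccl4, CC chemokines that draw in macrophages and T cells, fell together. Ccl3 measured 0.0912 to 17.3 FPKM (median 1.04) at 9 weeks and 0 to 0.201 FPKM (median 0) at 15 weeks, with 6 of 10 libraries listed at 0 (log2 change -5.14 ± 0.90 SE, adjusted p = 0.0109). Ccl4 measured 0.103 to 9.24 FPKM (median 1.16) and then 0 to 0.259 FPKM (median 0.0970) (log2 change -3.75 ± 0.71 SE, adjusted p = 0.0121). Of the 10 chemokines tested, these 4 were DEGs, all lower, beside 2.34% of all genes tested. At an unadjusted p under 0.05, 9 were lower, beside 14% of all genes, and the list's median log2 change was -2.30. Ccl2, the monocyte attractant, had a log2 change of -2.34 ± 0.64 SE and stayed under the FPKM minimum. In bulk tissue, fewer cells of a type and less RNA per cell cannot be told apart, here and in every list that follows.

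Interleukin-1 transcripts fell as well. Il1b, the inflammasome-processed cytokine, measured 0.203 to 129 FPKM (median 14.4) at 9 weeks and 0 to 4.51 FPKM (median 0.639) at 15 weeks (log2 change -4.35 ± 0.83 SE, adjusted p = 0.0121), with 8 of 10 libraries at 9 weeks above the highest at 15 weeks. Il1a, the alarmin form, measured 0 to 15.4 FPKM (median 2.16) and then 0 to 0.579 FPKM (median 0.0817) (log2 change -4.43 ± 0.85 SE, adjusted p = 0.0121). Il1r2, the decoy receptor, fell as well (log2 change -3.18 ± 0.69 SE, adjusted p = 0.0169). Il6, which drives STAT3 in regenerating epithelium, was listed at 0 in all 10 libraries at 15 weeks against 0 to 1.78 FPKM (median 0.361) at 9 weeks, and at adjusted p = 0.0121 it missed the DEG definition because its mean was under 1 FPKM. Tnf, the macrophage and T cell cytokine, fell less, from a range of 2.46 to 14.2 FPKM (median 5.89) to one of 0.467 to 4.43 FPKM (median 1.64) (log2 change -1.49 ± 0.33 SE, adjusted p = 0.0170), and 9 of 10 libraries at 9 weeks lay above all those at 15 weeks. Of 13 genes of the interleukin-1 and IL-6 list tested, 5 were DEGs, all lower (Il1a, Il1b, Il1r2, Tnf and Socs3, the feedback inhibitor of STAT3). Over all genes tested, 2.34% were DEGs that fell. The list's median log2 change was -1.49.

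Neutrophil transcripts had the lowest median of the lists, -3.16 on the log2 scale over 11 tested, all 11 lower at an unadjusted p under 0.05 and 6 of them DEGs. Over all genes tested, 14% were lower at that p and 2.34% were DEGs that fell. Csf3r, the G-CSF receptor, measured 0.0647 to 4.76 FPKM (median 1.14) at 9 weeks and 0 to 0.458 FPKM (median 0.0971) at 15 weeks (log2 change -3.16 ± 0.65 SE, adjusted p = 0.0139). The other DEGs were S100a8, S100a9 and Retnlg, granulocyte products, and Irg1 and Clec4d. Clec4e and Clec4d, myeloid C-type lectins of which Clec4e is no member of the list, had log2 changes of -5.03 ± 0.83 and -3.29 ± 0.67 SE (adjusted p = 0.0104 and 0.0134). Clec4e was listed at 0 FPKM in 6 of 10 libraries at 15 weeks. Cxcr2, the receptor for Cxcl2 and Cxcl3, was listed at 0 in 8 of 10 libraries at 15 weeks and measured 0 to 1.13 FPKM (median 0.290) at 9 weeks, but was under the FPKM minimum. The number of neutrophil DEGs was 2 without 9-week female 4 or 9-week male 2.

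Ptgs2, Irg1 and Hdc were also among the genes with the largest falls. Ptgs2, the inducible cyclooxygenase that makes prostaglandins, had the largest fall of the named genes, from a range of 0.0655 to 28.4 FPKM (median 2.43) to one of 0 to 0.426 FPKM (median 0.0537) (log2 change -5.57 ± 0.91 SE, adjusted p = 0.0104), with 8 of 10 libraries at 9 weeks above the highest at 15 weeks. Irg1, which makes itaconate in activated macrophages and neutrophils, fell from a median of 1.83 to 0.161 FPKM (log2 change -3.82 ± 0.78 SE, adjusted p = 0.0134). Hdc, the histamine-forming decarboxylase of mast cells and myeloid precursors, fell from a median of 0.937 FPKM to a median of 0 (log2 change -3.36 ± 0.77 SE, adjusted p = 0.0195). These 3 genes were DEGs in each of the 20 fits that left out 1 library.

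**Figure D2:**
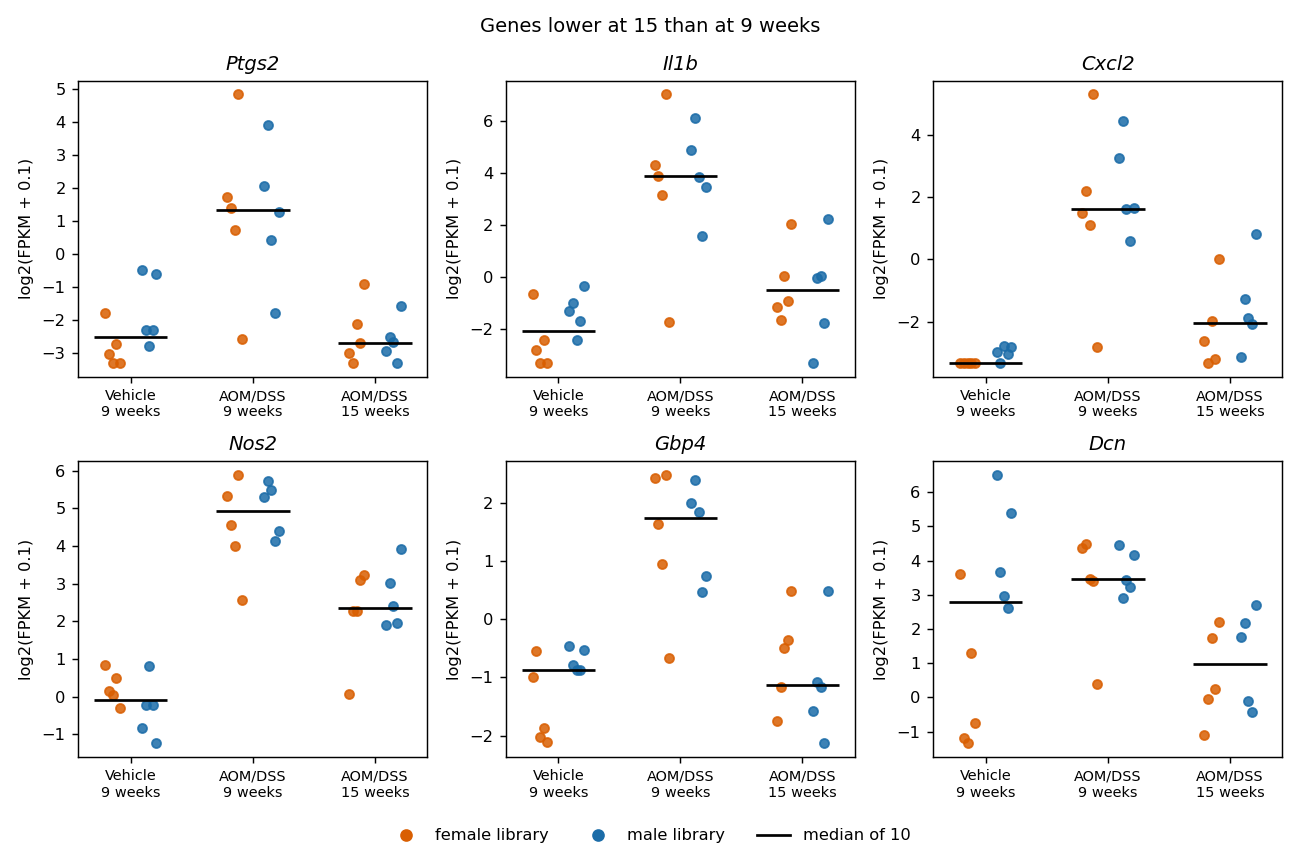
Level per library, as log2(FPKM + 0.1), of Ptgs2, Il1b, Cxcl2, Nos2, Gbp4 and Dcn in vehicle mice and at 9 and 15 weeks of AOM/DSS, females in orange, males in blue, and black bars for the medians of 10. For each gene 8 or 9 of the 10 libraries at 9 weeks lie above the highest at 15 weeks, and 1 female library, replicate 5, lies low at 9 weeks.

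Interferon-gamma targets formed the list with the most DEGs: 16 of 21 tested, all lower, beside 2.34% of all genes tested, with all 21 lower at an unadjusted p under 0.05 and a median log2 change of -1.34. The number of DEGs in it ran from 7, without 9-week female 1, to 18, without 9-week female 5. Over all genes those fits called 191 and 1261 DEGs. Summed over the list, the level was 185 to 720.3 FPKM (median 430.4) at 9 weeks and 113 to 279.6 FPKM (median 203) at 15 weeks, beside a vehicle range of 80.9 to 154.4 FPKM (median 121.6). All 10 libraries at 15 weeks lay below the 9-week median of the list. Apart from the genes described next, the DEGs of the list included Cxcl9 and Cxcl10, chemokines of T cell recruitment, Irgm1 and Igtp, GTPases of the same family as Irgm2, and Ubd, a ubiquitin-like modifier. They are named here only as members of the list.

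Guanylate-binding proteins, which coat and lyse pathogen vacuoles, were prominent among them. Gbp4 measured 0.527 to 5.49 FPKM (median 3.25) at 9 weeks and 0.128 to 1.30 FPKM (median 0.360) at 15 weeks (log2 change -2.30 ± 0.41 SE, adjusted p = 0.0112). Gbp5, which promotes inflammasome assembly, measured 0.114 to 4.49 FPKM (median 2.14) and then 0 to 1.02 FPKM (median 0.178) (log2 change -2.63 ± 0.53 SE, adjusted p = 0.0132). Gbp7 measured 0.710 to 7.96 FPKM (median 4.65) and then 0.484 to 2.44 FPKM (median 1.30) (log2 change -1.62 ± 0.30 SE, adjusted p = 0.0121). Of the 10 libraries at 9 weeks, 8 for Gbp4, 7 for Gbp5 and 9 for Gbp7 lay above the highest library at 15 weeks. Irgm2, an immunity-related GTPase, measured 5.85 to 35.4 FPKM (median 21.5) and then 3.91 to 15.4 FPKM (median 8.79) (log2 change -1.07 ± 0.21 SE, adjusted p = 0.0132). Ido1, which degrades tryptophan, measured 8.70 to 84.3 FPKM (median 26.5) and then 2.66 to 17.1 FPKM (median 7.45) (log2 change -1.70 ± 0.37 SE, adjusted p = 0.0170). Nos2, the inducible nitric oxide synthase that interferon-gamma and NF-kB induce together, measured 5.87 to 59.4 FPKM (median 31.4) and then 0.948 to 15.0 FPKM (median 4.99) (log2 change -2.14 ± 0.38 SE, adjusted p = 0.0109), with 9 of 10 libraries at 9 weeks above all those at 15 weeks.

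The promoters of Gbp5, Gbp7 and Irgm2 are shown because each holds both the GAS (interferon-gamma activated site) motif (TTC, any 3 bases, GAA) and the interferon response motif (GAAA, any 2 bases, GAAA) within 250 bases, searched on both strands and printed in capitals with the NF-kB motif. The positions, counted back from the gene start, are 245 to 237 and 52 to 44 for GAS, 165 to 156 for the interferon response motif and 77 to 68 for NF-kB in Gbp5. In Gbp7 the GAS motifs stand at 106 to 98 and 87 to 79 and the interferon response motif at 53 to 44. In Irgm2 they stand at 75 to 67 and 64 to 55. The sequences are from RefSeq, GRCm38.p6, plus strand, at chr3:142496684-142496933, chr3:142530086-142530335 and chr11:58214727-58214976. The GAS motif is in 7.18% and the interferon response motif in 3.04% of the 27025 promoters. No count over all DEGs is given, since 247 of the 368 that fell matched a promoter.
Gbp5: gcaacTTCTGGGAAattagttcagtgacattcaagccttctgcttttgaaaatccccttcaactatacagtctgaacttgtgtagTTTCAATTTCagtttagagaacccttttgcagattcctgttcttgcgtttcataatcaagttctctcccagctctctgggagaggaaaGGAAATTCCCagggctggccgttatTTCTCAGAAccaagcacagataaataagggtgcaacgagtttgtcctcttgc
Gbp7: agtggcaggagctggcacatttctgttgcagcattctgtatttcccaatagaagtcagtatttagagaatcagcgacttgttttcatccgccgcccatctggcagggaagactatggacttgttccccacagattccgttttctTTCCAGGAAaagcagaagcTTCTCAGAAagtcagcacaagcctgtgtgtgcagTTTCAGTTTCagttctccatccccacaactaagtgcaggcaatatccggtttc
Irgm2: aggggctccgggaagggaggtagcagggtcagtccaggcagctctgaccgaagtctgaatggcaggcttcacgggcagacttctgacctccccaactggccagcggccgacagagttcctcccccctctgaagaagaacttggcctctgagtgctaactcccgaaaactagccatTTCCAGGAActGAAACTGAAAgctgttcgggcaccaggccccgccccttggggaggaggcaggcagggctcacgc

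Of 20 type I interferon-stimulated genes tested, 3 were DEGs, all lower, beside 2.34% of all genes tested, with a median log2 change of -0.42. Ifit2, which binds viral RNA, fell from a range of 2.09 to 37.9 FPKM (median 18.7) to one of 1.32 to 11.7 FPKM (median 3.43) (log2 change -1.72 ± 0.38 SE, adjusted p = 0.0170), and Zbp1, a sensor of left-handed nucleic acid, fell less (log2 change -0.75 ± 0.18 SE, adjusted p = 0.0237). Ifi44 fell from a median of 3.25 to 0.852 FPKM (log2 change -1.36 ± 0.29 SE, adjusted p = 0.0167). Usp18, the deubiquitinase-like brake on the type I receptor, had a log2 change of -0.84 ± 0.27 SE (adjusted p = 0.0621). Without both replicate 5 libraries named above, 11 of the 20 were DEGs that fell and 1 a DEG that rose. Over all genes that fit called 716 lower and 509 higher, beside 368 and 76 in the main fit.

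Of 11 genes of class I antigen processing, beside 2.34% of all genes tested, 5 were DEGs that fell (median log2 change -0.47). They included B2m, the class I light chain, from a range of 615 to 1315 FPKM (median 854) to one of 438 to 755 FPKM (median 485) (log2 change -0.47 ± 0.13 SE, adjusted p = 0.0324). Psmb9 and Tap1, an immunoproteasome subunit and a peptide transporter, had log2 changes of -0.82 ± 0.20 and -0.90 ± 0.24 SE (adjusted p = 0.0238 and 0.0333). Nlrc5, the class I transactivator, fell further (log2 change -1.47 ± 0.38 SE, adjusted p = 0.0281). No class I gene was a DEG without 9-week female 4. Of 9 class II genes none was a DEG by edgeR, although all 9 had negative changes, with a median of -0.93. At an unadjusted p under 0.05, 6 were lower, beside 14% of all genes tested. Ciita, the class II transactivator, measured 0.421 to 10.1 FPKM (median 4.05) and then 0.191 to 2.86 FPKM (median 1.54) (log2 change -1.28 ± 0.41 SE, adjusted p = 0.0613). Without both replicate 5 libraries, 7 of the 9 class II genes were DEGs that fell. Over all genes that fit called 716 lower, beside 368 in the main fit.

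Macrophage markers had negative log2 changes in all 14 tested, with 5 DEGs, beside 2.34% of all genes tested, and a median log2 change of -1.04. Lyz2, the lysozyme of myeloid cells, measured 15.8 to 90.7 FPKM (median 66.6) at 9 weeks and 4.56 to 44.9 FPKM (median 20.5) at 15 weeks (log2 change -1.25 ± 0.30 SE, adjusted p = 0.0228). Csf1r, the receptor that keeps macrophages alive, measured 0.411 to 3.61 FPKM (median 2.23) and then 0.0955 to 1.46 FPKM (median 0.586) (log2 change -1.56 ± 0.34 SE, adjusted p = 0.0170). For both genes the 15-week libraries all lay below the 9-week median. Adgre1, which encodes F4/80, had a log2 change of -1.32 ± 0.32 SE but was under 1 FPKM at both times. In 10 of the fits that left out 1 library, 2 macrophage genes were DEGs.

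The T cell and B cell lists held 1 DEG each, beside 2.82% of all genes tested. The T cell DEG was also counted among the receptor segments given above. Of 19 T cell and cytotoxic genes, 1 was a DEG, Trac, the T cell receptor alpha constant region, from a range of 1.30 to 3.12 FPKM (median 1.96) to one of 0.506 to 2.74 FPKM (median 1.09) (log2 change -0.73 ± 0.21 SE, adjusted p = 0.0428). Trac was a DEG in 7 of the 20 fits that left out 1 library. The list's median log2 change was -0.52, from 0.06 in females and -0.94 in males, with 4 of 19 at an unadjusted interaction p under 0.05. Foxp3, which defines regulatory T cells, was under 0.2 FPKM in every library of both times. Thy1, a surface protein of T cells and fibroblasts counted in the fibroblast list, fell (log2 change -1.04 ± 0.23 SE, adjusted p = 0.0173). Of 12 B cell genes, 1 was a DEG, Cxcl13, the follicle-forming chemokine, with 0.715 to 10.1 FPKM (median 4.99) and then 0.475 to 5.02 FPKM (median 0.636) (log2 change -1.66 ± 0.45 SE, adjusted p = 0.0355), in 7 of the 20 fits that left out 1 library. Cd79a, of the B cell receptor complex, had a log2 change of -0.99 ± 0.45 SE (adjusted p = 0.178).

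Plasma cell genes had a median log2 change of -1.15 over 14 tested, with 1 DEG, beside 2.82% of all genes tested. The DEG was Jchain, which joins dimeric IgA for export into the lumen: it measured 32.0 to 332 FPKM (median 191) at 9 weeks and 11.9 to 94.96 FPKM (median 53.0) at 15 weeks (log2 change -1.59 ± 0.43 SE, adjusted p = 0.0360), and 8 of 10 libraries at 9 weeks lay above the highest at 15 weeks. Igkc, the kappa light chain, measured 378 to 3377 FPKM (median 1467) and then 119 to 1017 FPKM (median 471) (log2 change -1.42 ± 0.43 SE, adjusted p = 0.0545). Jchain was a DEG in 9 of the 20 fits that left out 1 library, and without 9-week female 5, 8 of the 14 were DEGs that fell. The fit without that female called 722 DEGs that fell over all genes, beside 368 in the main fit.

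Matrix and fibroblast genes were the list with the second most DEGs. Of 18 collagen and fibroblast genes tested, 10 were DEGs, all lower, beside 2.34% of all genes tested. At an unadjusted p under 0.05, 17 were lower, beside 14% of all genes, and the median log2 change was -1.73. Dcn, the proteoglycan decorin, measured 1.21 to 22.1 FPKM (median 10.9) at 9 weeks and 0.365 to 6.42 FPKM (median 2.15) at 15 weeks (log2 change -2.22 ± 0.46 SE, adjusted p = 0.0153). Col5a2, a fibril-nucleating collagen chain, measured 0.135 to 2.17 FPKM (median 1.25) and then 0.0266 to 0.592 FPKM (median 0.204) (log2 change -2.18 ± 0.48 SE, adjusted p = 0.0171). In both, 9 of the 10 libraries at 9 weeks lay above the highest at 15 weeks. The vehicle medians of Dcn and Col5a2 were 6.89 and 0.417 FPKM. Male vehicle replicate 1, which stood apart from the other vehicle libraries in these genes, had 91.2 FPKM of Dcn. The number of DEGs in the list was 5 without 9-week female 2, 9-week female 4 or 9-week male 1. With the mesenchymal covariate, which is built from such genes, the median was -0.03.

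Of 11 metalloproteinases, which clear and remodel matrix, and their inhibitors, 3 were DEGs that fell, beside 2.34% of all genes tested. The DEGs were the enzymes Mmp3 and Mmp12 and the inhibitor Timp3. All 11 had negative changes, 8 of them at an unadjusted p under 0.05, beside 14% of all genes, and the median log2 change was -1.70. Mmp3, stromelysin of activated fibroblasts, measured 0 to 3.34 FPKM (median 1.32) and then 0 to 0.443 FPKM (median 0.0216) (log2 change -3.54 ± 0.76 SE, adjusted p = 0.0169), with 4 of 10 libraries listed at 0 at 15 weeks. Mmp12, the macrophage elastase, fell too (log2 change -2.87 ± 0.59 SE, adjusted p = 0.0139), as did Timp3, a matrix-bound inhibitor of such enzymes (log2 change -1.37 ± 0.33 SE, adjusted p = 0.0244). With 8 DEGs, the list grew most when 15-week male 5 was left out, and with 2 it shrank most without 9-week female 4 or 9-week male 1.

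Smooth muscle and vessel lists held 3 DEGs, where 2.82% of all genes tested were DEGs. Acta2, the actin of smooth muscle and myofibroblasts, measured 2.08 to 16.8 FPKM (median 6.80) at 9 weeks and 0.238 to 4.12 FPKM (median 1.23) at 15 weeks (log2 change -1.79 ± 0.47 SE, adjusted p = 0.0322). Flna, an actin crosslinker, fell from a range of 2.22 to 7.20 FPKM (median 5.42) to one of 0.941 to 3.65 FPKM (median 2.49) (log2 change -1.04 ± 0.20 SE, adjusted p = 0.0121). These were the 2 DEGs of 11 smooth muscle genes, whose median log2 change was -1.70. The summed level of the smooth muscle list was 11.7 to 98.4 FPKM (median 34.0) at 9 weeks, 4.80 to 34.3 FPKM (median 10.1) at 15 weeks and 5.66 to 2542 FPKM (median 23.4) in vehicle mice, of which male replicate 1 was the highest. Of 12 endothelial genes, 1 was a DEG, Pecam1, from a range of 1.47 to 4.55 FPKM (median 3.01) to one of 0.638 to 2.39 FPKM (median 1.25) (log2 change -0.98 ± 0.21 SE, adjusted p = 0.0170), and 11 were lower at an unadjusted p under 0.05. Kdr, the main VEGF receptor, had a log2 change of -2.14 ± 0.53 SE at 0.0491 to 1.02 FPKM (median 0.658) at 9 weeks. None of 6 enteric neuron and glia genes was a DEG (median -0.63, 2 lower at an unadjusted p under 0.05, beside 14% of all genes tested).

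Of 17 fetal-like regenerative genes, 2 were DEGs that fell, Ptgs2, given above, and Ly6a, beside 2.34% of all genes tested. The median log2 change of the list was -0.47. Ly6a, the Sca-1 antigen that marks repairing crypts, measured 134 to 831 FPKM (median 534) at 9 weeks and 108 to 569 FPKM (median 235) at 15 weeks (log2 change -0.77 ± 0.22 SE, adjusted p = 0.0385), and its vehicle median was 94.0 FPKM. Anxa1, a pro-repair annexin, had a log2 change of -0.46 ± 0.14 SE (adjusted p = 0.0572). Without both replicate 5 libraries, 7 of the 17 were DEGs that fell, where that fit called 716 lower over all genes, beside 368 in the main fit. Of 16 oxidase and defence genes, 2 were DEGs, both lower, beside 2.34% of all genes tested. The list had 12 negative and 4 positive changes and a median log2 change of -0.25. At an unadjusted p under 0.05, 4 were lower and 2 higher, beside 14% and 10% of all genes tested. The DEGs were Nos2, given above, and Slpi, the secretory protease inhibitor. Slpi fell from a range of 0.388 to 30.3 FPKM (median 13.0) to one of 0.412 to 11.97 FPKM (median 2.35) (log2 change -1.93 ± 0.56 SE, adjusted p = 0.0466). Ly6a was a DEG in 8 and Slpi in 4 of the 20 fits that left out 1 library. Duox2, the hydrogen peroxide-forming oxidase of the epithelial surface, measured 66.6 to 122.2 FPKM (median 102) and then 30.3 to 94.1 FPKM (median 62.6) (log2 change -0.45 ± 0.16 SE, adjusted p = 0.0867).

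The Reg family of antimicrobial lectins gave no DEG. Reg3b measured 94.1 to 1967 FPKM (median 533) at 9 weeks and 4.12 to 1349 FPKM (median 400.0) at 15 weeks (log2 change -0.56 ± 0.69 SE, adjusted p = 0.636), and Reg3g had medians of 160.2 and 170.4 FPKM (log2 change -0.65 ± 0.60 SE, adjusted p = 0.523). The Reg3b and Reg3g ranges overlapped broadly. Over the list, 2 changes were negative and 3 positive, from -0.65 to 3.81, with a median log2 change of 0.30. None of the 5 tested was a DEG by edgeR. At an unadjusted p under 0.05, 1 was higher and 0 lower, beside 10% and 14% of all genes tested. In the hypoxia and glycolysis list 1 of 18 was a DEG, Pfkfb3, which raises the allosteric activator of glycolysis: it measured 0.552 to 4.96 FPKM (median 3.30) and then 0.278 to 1.47 FPKM (median 0.787) (log2 change -1.74 ± 0.29 SE, adjusted p = 0.0104). The median of that list was -0.05, and its 1 DEG of 18 stands beside 2.82% of all genes tested. Muc4, a membrane mucin, was the 1 DEG of 15 goblet cell genes, beside the same 2.82% (log2 change -0.53 ± 0.16 SE, adjusted p = 0.0480). It stayed a DEG in 3 of the 20 fits that left out 1 library.

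The genes that rose changed by smaller amounts, and enzymes of detoxification and fat oxidation were among them. Of 20 detoxification enzymes, 3 were DEGs, all higher, beside 0.483% of all genes tested. At an unadjusted p under 0.05, 16 were higher, beside 10% of all genes, and the median log2 change was 0.52. Gstm3, a mu-class glutathione transferase, measured 17.1 to 33.7 FPKM (median 25.4) at 9 weeks and 23.7 to 44.8 FPKM (median 34.0) at 15 weeks (log2 change 0.57 ± 0.14 SE, adjusted p = 0.0252). Gstm1, of the same cluster, measured 79.5 to 161 FPKM (median 119) and then 102 to 197 FPKM (median 146.2) (log2 change 0.52 ± 0.14 SE, adjusted p = 0.0323). Sult1a1, a phenol sulfotransferase, measured 80.4 to 231 FPKM (median 128) and then 125 to 238 FPKM (median 171) (log2 change 0.53 ± 0.15 SE, adjusted p = 0.0455). In these 3 genes the ranges overlapped, with 9, 8 and 9 of 10 libraries at 15 weeks above the 9-week median. The number of DEGs in the list was 0 without 9-week female 1, 9-week female 4, 9-week male 1 or 15-week female 1, and 15 without 9-week female 5. The last of these fits called 1261 DEGs over all genes, beside 444 in the main fit. Cyp2c55, an arachidonate-metabolising cytochrome, measured 128 to 1802 FPKM (median 379) and then 285 to 1660.3 FPKM (median 751) (log2 change 1.05 ± 0.37 SE, adjusted p = 0.0903).

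Of 15 PPAR targets and fat oxidation genes, 2 were DEGs, both higher, beside 0.483% of all genes tested, with a median log2 change of 0.56. Acaa2, the thiolase that ends each round of mitochondrial beta-oxidation, measured 32.3 to 83.4 FPKM (median 45.9) at 9 weeks and 38.8 to 77.1 FPKM (median 65.9) at 15 weeks (log2 change 0.56 ± 0.15 SE, adjusted p = 0.0326). Acot1, a cytosolic acyl-CoA thioesterase, measured 1.10 to 2.68 FPKM (median 1.52) and then 1.30 to 3.83 FPKM (median 2.17) (log2 change 0.69 ± 0.20 SE, adjusted p = 0.0436). The Acot, Gstm and Gbp genes lie in clusters of similar copies that can share reads, so their counts are uncertain. Pdk4, which spares pyruvate, had medians of 1.47 and 4.15 FPKM (adjusted p = 0.0634). Acaa2 was a DEG in 13 and Acot1 in 7 of the 20 fits that left out 1 library.

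Among differentiated epithelial genes, Guca2a, the guanylin hormone of surface colonocytes, was the 1 DEG of 23 absorptive genes: it measured 711 to 2342 FPKM (median 965) at 9 weeks and 1008 to 2619 FPKM (median 1685) at 15 weeks (log2 change 0.81 ± 0.24 SE, adjusted p = 0.0456), with all 10 libraries at 15 weeks above the 9-week median. It was a DEG in 4 of the 20 fits that left out 1 library, and its 9-week maximum was female replicate 5. Fabp2, the intestinal fatty acid-binding protein, had medians of 161 and 273 FPKM (log2 change 0.91 ± 0.28 SE, adjusted p = 0.0544). The absorptive list had a median log2 change of 0.10. Without 9-week female 5 it held 7 DEGs, where that fit called 1261 DEGs over all genes, beside 444 in the main fit. The list's 1 DEG of 23 in the main fit stands beside 2.82% of all genes tested. Ascl2, the transcription factor of crypt base stem cells, rose from a range of 0.780 to 1.61 FPKM (median 1.18) to one of 0.620 to 2.57 FPKM (median 1.55) (log2 change 0.65 ± 0.18 SE, adjusted p = 0.0362). It was a DEG in 10 of the 20 fits that left out 1 library. Ascl2 was the 1 DEG of 21 Wnt target and stem cell genes (median -0.10), beside the same 2.82%.

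Of 11 tuft cell genes none was a DEG, and 6 were higher at an unadjusted p under 0.05, beside 10% of all genes tested. The list's median log2 change was 0.47. Dclk1 measured 1.43 to 2.75 FPKM (median 2.05) and then 1.25 to 4.01 FPKM (median 2.65) (log2 change 0.49 ± 0.16 SE, adjusted p = 0.0686), and Trpm5, the taste-type cation channel, had a log2 change of 0.48 ± 0.17 SE (adjusted p = 0.0888). Other genes of the largest rises were Fndc5, the precursor of irisin, from a range of 0.427 to 2.08 FPKM (median 1.16) to one of 1.09 to 4.02 FPKM (median 1.88) (log2 change 1.06 ± 0.31 SE, adjusted p = 0.0487), Prlr, the prolactin receptor, from a median of 0.460 to 1.05 FPKM (log2 change 0.997 ± 0.27 SE, adjusted p = 0.0350), and Hsph1, a chaperone of the HSP110 class, from 6.01 to 7.81 FPKM (log2 change 0.84 ± 0.25 SE, adjusted p = 0.0474). Fndc5, Prlr and Hsph1 were DEGs in 5, 9 and 6 of the 20 fits.

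**Figure D3:**
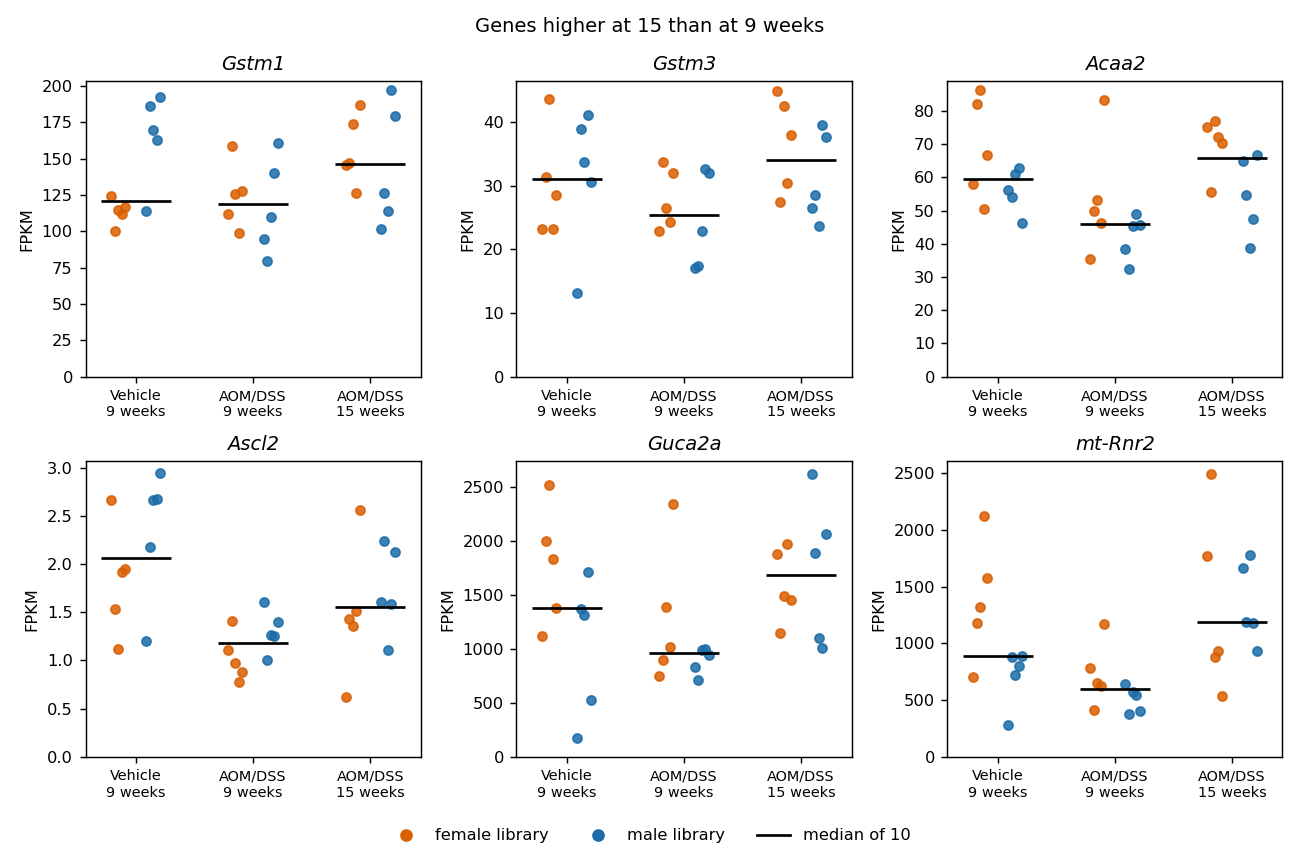
FPKM per library of Gstm1, Gstm3, Acaa2, Ascl2, Guca2a and mt-Rnr2 in vehicle mice and at 9 and 15 weeks of AOM/DSS, on linear axes from 0, females in orange, males in blue, and black bars for the medians of 10. The ranges at 9 and 15 weeks overlap in every panel, and the single high 9-week library of Acaa2, Guca2a and mt-Rnr2 is female replicate 5.

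Mitochondrially encoded transcripts made up 7 of the 12 largest rises named. Of 15 genes in a list of them, 5 were DEGs, all higher, beside 0.483% of all genes tested. All 15 had positive changes, with a median log2 change of 1.005. This list was added after seeing the data, and it held 2 DEGs in 13 of the 20 fits that left out 1 library and 10 without 9-week female 5. The fit without that female called 1261 DEGs over all genes, beside 444 in the main fit. mt-Rnr2, the large ribosomal RNA, measured 377 to 1174 FPKM (median 602) at 9 weeks and 536 to 2496 FPKM (median 1185) at 15 weeks (log2 change 1.39 ± 0.30 SE, adjusted p = 0.0170), and mt-Rnr1, the small one, had medians of 511 and 968 FPKM (log2 change 1.27 ± 0.29 SE, adjusted p = 0.0194). For mt-Rnr2, 6 of 10 libraries at 15 weeks exceeded the highest at 9 weeks, which was female replicate 5, and the highest at 15 weeks was female replicate 2. mt-Co1, the catalytic subunit of complex IV, had medians of 15806 and 27510.1 FPKM (log2 change 1.08 ± 0.31 SE, adjusted p = 0.0396). mt-Nd1 and mt-Nd4, of complex I, were listed at 0 FPKM in every library although they were counted, with log2 changes of 0.99 ± 0.27 and 1.005 ± 0.27 SE in the counts, and so could not meet the FPKM minimum. Values of mt-Co2 are uncertain: at 15 weeks its median was 5.95 log2 CPM and female replicate 2 stood at 9.79. Whether it shared reads with nuclear copies was not tested.

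Nuclear-encoded respiratory chain genes, also listed after seeing the data, gave no DEG of 27 tested. At an unadjusted p under 0.05, 15 were higher, beside 10% of all genes tested. Positive changes were seen in 26, with a median log2 change of 0.22. Ndufv1 and Ndufb5, of complex I, had log2 changes of 0.34 ± 0.10 and 0.28 ± 0.08 SE (adjusted p = 0.0386 and 0.0438), under the threshold of 0.4. With counts of mitochondrial genes and their nuclear copies removed before scaling, 329 genes fell and 71 rose. Rpl17-ps8, a ribosomal pseudogene of uncertain counts, rose by 1.34 ± 0.27 SE on the log2 scale (adjusted p = 0.0132).

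The largest fitted rise, Ctrb1, came from 1 library. Ctrb1, the pancreatic proenzyme chymotrypsinogen B, measured 0 to 0.809 FPKM at 9 weeks and was listed at 0 in 7 of 10 libraries at 15 weeks, with 280.2 FPKM in male replicate 5 (log2 change 7.20 ± 1.996 SE, adjusted p = 0.0375). Without that library and 9-week female 5 its log2 change was -0.92. Clps, pancreatic colipase, was highest in the same library, at 107 FPKM against 28.4 in the next, and so was Reg1, at 21.9 FPKM against 0.872.

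Several programs gave no DEG. Of 22 cell cycle and DNA replication genes, 0 were DEGs by edgeR and 0 reached an unadjusted p under 0.05 in either direction, with a median log2 change of -0.02. Top2a, a topoisomerase of dividing cells, measured 13.7 to 33.8 FPKM (median 22.3) at 9 weeks and 8.95 to 32.0 FPKM (median 17.2) at 15 weeks (log2 change -0.24 ± 0.17 SE, adjusted p = 0.402). Sox9 and Cd44, both Wnt-responsive crypt genes, had log2 changes of 0.22 ± 0.18 and 0.20 ± 0.15 SE (adjusted p = 0.457 and 0.430). Immediate early genes (18 tested, median -0.08), clock genes of the day phase (11, median -0.11) and of the night phase (7, median -0.13), enteroendocrine genes (14, median 0.18) and Paneth cell genes (5, median -0.01) held no DEG by edgeR. At an unadjusted p under 0.05 they held 3, 1 and 1 genes lower, 2 higher and 0 of either sign, in that order. Over all genes tested, the shares at that p were 14% lower and 10% higher. Of 12 pan-epithelial markers none was a DEG, with a median of 0.13 and 3 higher at an unadjusted p under 0.05.

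Genes of colon position varied widely between libraries of the same time. Hoxb13, which marks the distal colon, measured 2.25 to 97.4 FPKM (median 52.3) at 9 weeks and 1.69 to 70.3 FPKM (median 25.9) at 15 weeks, so that both times held libraries from under 3 to over 70 FPKM (log2 change -0.69 ± 0.50 SE, adjusted p = 0.402). Hoxd13 was listed at 0 in 6 of 10 libraries at 15 weeks and measured 0 to 8.65 FPKM (median 4.26) at 9 weeks (log2 change -2.52 ± 1.31 SE, adjusted p = 0.243). Of 8 distal genes none was a DEG (median -0.56, 1 lower at an unadjusted p under 0.05), nor of 11 proximal genes (median 0.36, 1 lower and 4 higher). Over all genes tested, 14% were lower and 10% higher at that p. The part of colon position in the DEGs beyond the covariate fits given above was not tested.

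**Figure D4:**
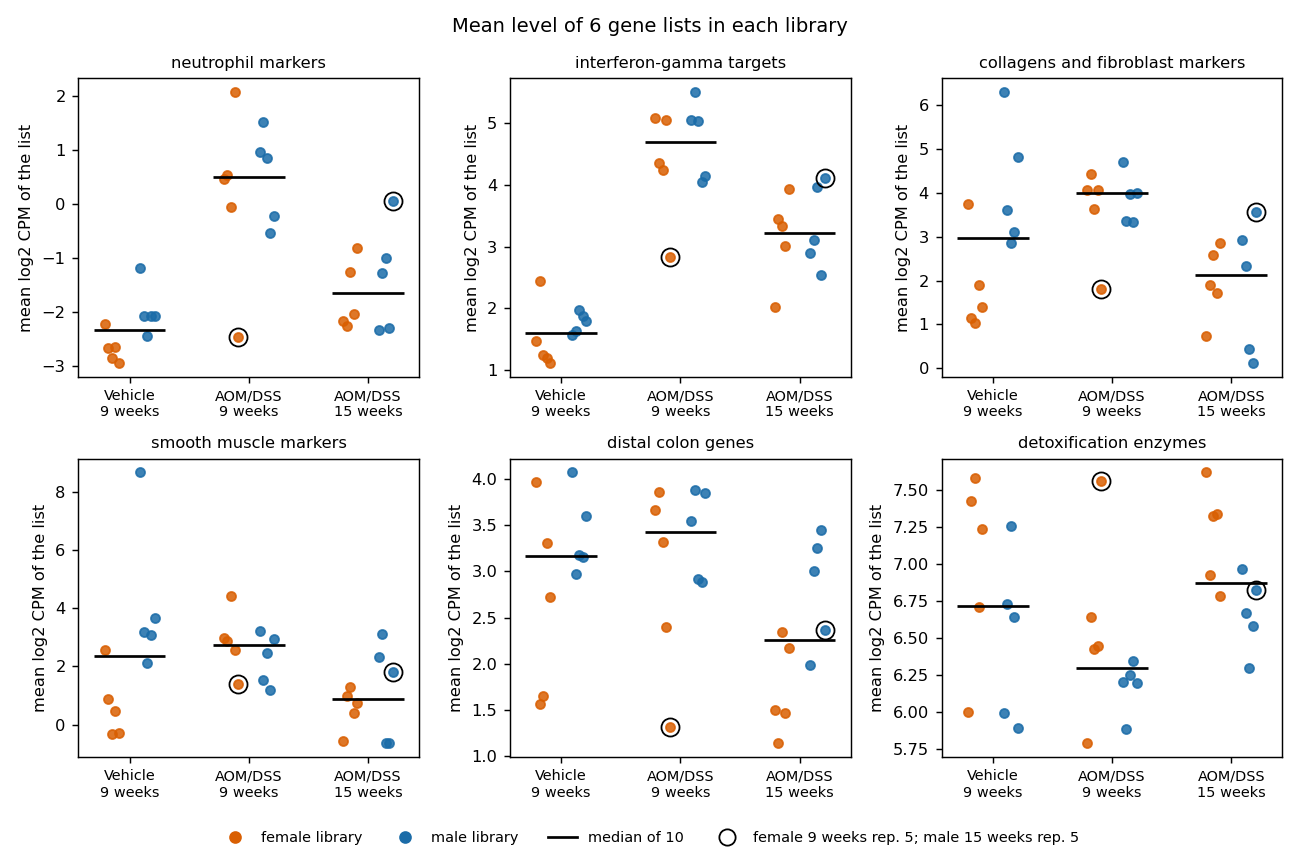
Mean log2 CPM of 6 gene lists in each library of vehicle mice and at 9 and 15 weeks of AOM/DSS, females in orange, males in blue, black bars for the medians of 10, and rings for the replicate 5 libraries of 9-week females and 15-week males. On this scale the 15-week medians of neutrophil markers (-1.65) and interferon-gamma targets (3.22) lie between the vehicle and the 9-week medians. The ringed female library is lowest of its time in the neutrophil, interferon-gamma, collagen and distal colon panels.

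The sexes were pooled, and the change from 9 to 15 weeks could differ between them. No gene passed the test of a weeks by sex interaction by edgeR, with 405 of 15748 at an unadjusted p under 0.05, and DESeq2 passed 2. Within either sex alone, with 5 libraries a group, the same fit called 0 DEGs, with 2016 genes at an unadjusted p under 0.05 in females and 2152 in males. DESeq2 on 1 sex at a time called 126 DEGs in females and 397 in males, and edgeR on 1 sex at a time 0 and 7. For Il1b the log2 change was -4.75 in females and -3.97 in males, and for Gbp5 -2.56 and -2.70. The medians of interferon-gamma targets were -1.13 in females and -1.27 in males. For smooth muscle genes they were -2.90 and -0.64, with 6 of 11 at an unadjusted interaction p under 0.05.

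The vehicle libraries give a background level, with the limit that vehicle mice were killed at 9 weeks only and that the comparisons share libraries. In 1 edgeR fit on all 30 libraries and 16261 genes, 878 (5.4%) were higher and 451 (2.77%) lower at 9 weeks than in vehicle, and 555 (3.41%) were higher and 648 (3.98%) lower at 15 weeks. Median log2 changes against vehicle at 9 and then 15 weeks were 3.37 and 1.12 for chemokines. For interferon-gamma targets they were 2.76 and 1.46. For class II genes they were 3.30 and 2.17. For collagen and fibroblast genes they were 0.22 and -1.45, and for smooth muscle genes -1.59 and -3.98. For detoxification enzymes they were -0.47 and 0.06, the latter -0.02 without male vehicle replicate 1. For mitochondrially encoded genes they were -0.47 and 0.59. Male vehicle replicate 1 stood apart, with a mean log2 CPM of 6.31 over the collagen and fibroblast list and 8.68 over the smooth muscle list, beside vehicle medians of 2.98 and 2.35. Without it, a choice made after seeing the data, the collagen and fibroblast medians against vehicle were 0.84 at 9 weeks and -0.85 at 15 weeks, and the smooth muscle medians 0.95 and -0.99, so that the smooth muscle sign at 9 weeks depended on that library. Also without it, 407 genes were lower at 15 weeks than in vehicle, beside 648 with it, and 413 were higher, beside 555. Which of the 2 counts was larger thus depended on that library. The chemokine, interferon-gamma and class II medians moved by less than 0.4 without it and stayed positive. Summed over the collagen and fibroblast list, the median level was 75.2 FPKM at 9 weeks, 18.4 at 15 weeks and 36.0 in vehicle mice. For the neutrophil list the summed medians were 123, 43.3 and 76.3 FPKM, so its 15-week level was below vehicle by this measure and above it by mean log2 CPM. For single genes, Nos2 had 31.4 at 9 weeks, 4.99 at 15 weeks and 0.843 in vehicle mice, Ido1 had 26.5, 7.45 and 1.69, and Cxcl2 had 2.997, 0.146 and 0.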

How the data were processed

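Libraries were made by the authors with a stranded poly(A) kit and sequenced on an Illumina NovaSeq; per the labels, reads were trimmed with Trim Galore, aligned to mm10 with STAR and counted per gene with featureCounts. The deposited raw counts (46078 genes, 30 libraries) are not normalized, and duplicates were not stated to be removed. The authors also deposited StringTie FPKM per library, normalized to gene length and depth, whose repeated gene lines were summed here, beside coverage and TPM from the same run, which were not used.

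Counts were tested in R 4.3.3 with edgeR 4.0.16 (TMM, filterByExpr on the 4 groups, quasi-likelihood test, sex as additive term) and Benjamini-Hochberg adjustment over 15748 genes. Alternatives used edgeR with other settings or DESeq2 1.42.0. SE is the log2 change divided by the square root of F. List scores were mean log2 CPM with a prior count of 2. Named genes were the 12 largest DEGs a direction outside receptor segments and predicted genes, up to 5 members of each list by smallest p, and Il6, Il1b and Tnf. Members, lists and tests were chosen with earlier results of these data known. The tests were checked on simulated counts before use. Same-numbered replicates did not deviate together (2 of 30 pairs correlated above 0.1) and were not treated as pairs. None of the 40 pairs of libraries compared within a group agreed within sampling noise. Intervals and p-values cover the spread between mice.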

Additional observations from a re-analysis of the deposited data

Results flagged for a closer look

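Each of the named genes was screened at each time for 1 library standing apart from the other 9, as log2 CPM with a prior count of 2. Of 238 groups of 10 libraries, 35 held such a library, where chance gives about 1 in 20, and 26 of the 35 were the replicate 5 library of 9-week females. Values are given as that library's log2 CPM with the median of its time in parentheses.

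In the replicate 5 library of 9-week females, inflammatory, matrix, vessel and position genes stood below the other 9-week libraries. The values were Gbp7 2.1 (4.69), Flna 4.36 (5.63), Irgm2 4.96 (6.52), Dcn 1.95 (4.71), Mmp3 -3.62 (1.58), Fcgr1 -2.9 (0.116), Ifit2 3.71 (6.52), Col5a2 0.495 (3.41) and Timp3 1.66 (4.36). Further low values were Kdr -0.838 (2.35), Nlrc5 2.65 (5.32), Cdh5 -2.06 (1.96), Mmp9 -2.9 (0.937), Ly6a 7.6 (9.29), Anxa1 7.02 (7.85), H2-DMb1 2.77 (5.53), Hoxb13 3.02 (7.27) and Sox9 4.59 (5.57). Mitochondrial, fat oxidation and colonocyte genes stood above, at mt-Rnr2 11.5 (10.3), mt-Rnr1 10.6 (9.3), mt-Tw 2.68 (0.2), Acaa2 7.64 (6.53), mt-Co1 16.3 (14.7), Guca2a 11.1 (9.54), Fabp2 9.49 (7.66) and Cyp2c55 12.5 (9.94). This is the library whose omission gave 722 DEGs lower and 539 higher at 15 weeks.

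In replicate 1 of 15-week females the library standing apart had Nos2 2.89 (5.29), Il6 -1.88 (-3.62) and Csf1r -0.423 (1.94). In replicate 2 of 15-week females the library standing apart had mt-Tw 4.51 (1.95) and mt-Co2 9.79 (5.95). In replicate 5 of 15-week males the library standing apart had Ctrb1 8.52 (-3.62), Reg1 4.61 (-0.909) and Clps 6.48 (3.62). In replicate 5 of 9-week males the library standing apart had Duox2 8.9 (9.56). For all of these the cause was not tested.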

How the results depend on the processing

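The main counts were 368 DEGs lower and 76 higher at 15 weeks, and signs of all 444 were kept by DESeq2, RLE size factors, the fit without a filter, the replicate block, the fit without a sex term and the fit on all 30 libraries. DESeq2 called 193 higher, the fit without a sex term 46 higher, no FPKM minimum 766 lower and no fold change threshold 173 higher. Leaving out 1 library at a time gave 165 to 722 lower and 10 to 539 higher. Leaving out both replicate 5 libraries that stood apart, chosen after seeing the data, gave 716 lower and 509 higher. With a mesenchyme, smooth muscle or distal colon score as covariate, 0 DEGs were lower and 0 higher. Of the weeks by sex interaction, DESeq2 passed 2 genes, the fit with no filter 1, and leaving out 1 library 0 to 2. Without male vehicle replicate 1, chosen after seeing the data, 407 genes were lower and 413 higher at 15 weeks than in vehicle. For the other changes in number, the cause was not tested.

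The replicate numbers are shared between groups, and same-numbered libraries correlated by -0.594 to 0.208, with 2 of 30 pairs above 0.1. No pairing was seen, but weak correlations cannot exclude that the numbers mark a shared cage or processing. The fit with the replicate block called 98 lower and 3 higher.

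Among the genes named in the text, signs reversed in 4 cases, none past the threshold in that fit. The Ctrb1 log2 change was -0.923 without both replicate 5 libraries. With the distal colon score, the Hoxd13 log2 change was 1.49, the Hoxb13 log2 change 0.661 and the Muc2 log2 change -0.187. Of the 66 named DEGs, 34 were DEGs in all 20 fits that left out 1 library. Depth was 14619526 counts or more in these libraries, and genes such as Ccl3 and Clec4e, listed at 0 FPKM in part of the 15-week libraries, have fold changes that rest on few reads.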
